A study of Mus musculus with 4 samples.

Results

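The genes that move calcium into and out of the internal store were read in inguinal white adipose tissue (ingWAT) of cold-exposed mice. The 10 genes were chosen by symbol: the calcium pumps *Atp2a1*, *Atp2a2* and *Atp2a3*, the pump inhibitors *Sln* and *Pln*, the ryanodine receptors *Ryr1*, *Ryr2* and *Ryr3*, and the inositol trisphosphate (IP3) receptors *Itpr1* and *Itpr2*. All 10 were found among the 19030 genes of the table. *Atp2a1* and *Ryr1* are the isoforms typical of skeletal muscle and were described apart from the others.

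The study compared 2 groups of mice, Ctrl and cKO, with 2 RNA-seq libraries each. The norepinephrine transporter Oct3 is encoded by *Slc22a3*. Ctrl mice carried floxed *Oct3* alleles without Cre, and cKO mice carried the same floxed alleles with Adiponectin-Cre, which removes the gene in adipocytes and leaves it in the other cells of the tissue. All mice were on a C57BL/6 background, were labelled as 3 months old and had been kept at 4°C. The paper's methods describe male mice and a cold challenge that lasted weeks and began at a milder temperature. The sources used here do not say whether the 2 libraries of a group came from separate mice or from pools, so p-values measure the spread between these libraries, which may be technical.

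Calcium in resting cells is held low in the cytosol and high in the sarcoplasmic or endoplasmic reticulum (SR or ER). SERCA pumps, the products of the *Atp2a* genes, use ATP to carry calcium into this store, and ryanodine receptors and IP3 receptors are the channels that let it out. Sarcolipin and phospholamban are small membrane proteins that restrain the pump. In adipose tissue the ATP spent on pumping calcium that leaks back is known as a source of heat that does not need UCP1, and the widely expressed pump SERCA2 and the receptor RYR2 are the members named for it in beige fat.

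The values are FPKM, fragments per length of transcript and per number of mapped fragments, so levels of different genes can be set side by side per length. A gene with a mean of at least 1 FPKM entered the test, which left 12658 genes for limma, fitted to log2(FPKM + 1) values, and a gene was called at an adjusted p (Benjamini-Hochberg) under 0.05. *Slc22a3* stood at 16.95 and 17.7 FPKM in Ctrl and at 9.07 and 9.50 FPKM in cKO, a log2 fold change of -0.83 (SE 0.066, limma adjusted p = 0.000439). From the steps between low values of short RNAs, each library held about 17450000 to 18500000 reads. White adipocyte genes were abundant in every library, with *Fabp4*, the fatty acid carrier of adipocytes, between 13456 and 16398 FPKM. Correlations across genes on the log2 scale were 0.9939 between the Ctrl libraries, 0.9938 between the cKO libraries and 0.9677 to 0.9748 between groups.

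The muscle isoforms of pump and release channel were far lower in cKO than in Ctrl ingWAT, and the other pumps and the IP3 receptors were 1.26-fold to 1.46-fold higher. Of the 10 genes, 6 reached the filter and all 6 were called, 4 higher and 2 lower, where 25.8% of all genes tested were called, 12.0% higher and 13.8% lower. In each of the 6 the libraries of the groups did not overlap, as for 31.9% of the genes tested with both cKO libraries above both Ctrl libraries and 34.6% with both below. *Ryr1* and *Atp2a1* passed the filter through their Ctrl values alone, so the count over the 6 genes that passed is a description. *Atp2a1* had position 6 among the largest falls of the 12658 genes and *Ryr1* position 69. The strongest rise of a member was that of *Itpr2*, at position 592 among the rises. The median log2 fold change was 0.32 over the 6 members tested, beside -0.006 over all genes tested. Over the 4 tested members other than *Atp2a1* and *Ryr1*, all called higher, it was 0.33, and its sign follows from those calls.

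**Figure D1:**
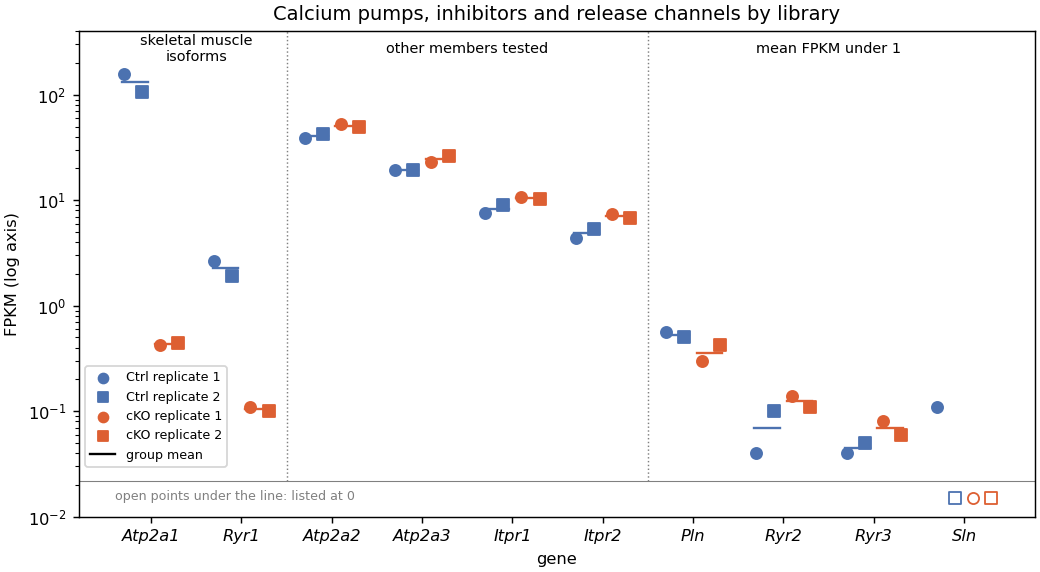
FPKM of each of the 10 genes on a log axis, with 1 point per library, coloured by group, and a short line at the group mean. *Atp2a1* and *Ryr1* are lower in both cKO libraries than in both Ctrl libraries, and *Atp2a2*, *Atp2a3*, *Itpr1* and *Itpr2* are higher in both. *Sln* is listed at 0 in 3 libraries and has no mean line.

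Stretches just before the annotated start of 4 members are shown because the 2 muscle isoforms fell and *Atp2a3* and *Itpr2* rose, so that their starts can be read against each other. The bases are those from 250 to 41 before the start, 210 bases in each, from RefSeq (GRCm38.p6), 5′ to 3′ on the strand of the gene. This is the start of the RefSeq entry, which for *Atp2a1*, *Ryr1* and *Itpr2* lies within the gene bounds given below. For *Atp2a3* it is the first base of those bounds. Capitals mark CANNTG, the E-box letters that muscle and other helix-loop-helix factors bind, and GGGCGG, the GC box, on either strand.
Atp2a1: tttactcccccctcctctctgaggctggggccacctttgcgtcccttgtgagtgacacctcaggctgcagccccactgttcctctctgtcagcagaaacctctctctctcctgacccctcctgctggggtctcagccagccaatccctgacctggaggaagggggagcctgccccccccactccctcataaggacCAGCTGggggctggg
Ryr1: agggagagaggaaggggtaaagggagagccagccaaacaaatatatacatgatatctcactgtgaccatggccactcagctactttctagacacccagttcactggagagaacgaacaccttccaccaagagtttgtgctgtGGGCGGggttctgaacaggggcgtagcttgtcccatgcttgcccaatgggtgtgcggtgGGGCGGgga
Atp2a3: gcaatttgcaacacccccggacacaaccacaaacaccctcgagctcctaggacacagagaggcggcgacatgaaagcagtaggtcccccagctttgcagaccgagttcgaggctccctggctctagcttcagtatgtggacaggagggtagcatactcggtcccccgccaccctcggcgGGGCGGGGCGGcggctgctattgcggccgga
Itpr2: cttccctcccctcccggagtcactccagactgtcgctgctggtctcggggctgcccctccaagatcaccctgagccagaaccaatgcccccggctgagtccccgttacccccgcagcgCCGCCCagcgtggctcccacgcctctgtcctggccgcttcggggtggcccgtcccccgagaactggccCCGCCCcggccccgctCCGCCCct
The windows lie at chr7:126463114-126463323 on the minus strand for *Atp2a1*, chr7:29125192-29125401 on the minus strand for *Ryr1*, chr11:72960919-72961128 on the plus strand for *Atp2a3* and chr6:146502264-146502473 on the minus strand for *Itpr2*. The *Atp2a1* window held 1 CANNTG, spelled CAGCTG and 55 bases before the start, and 0 GC boxes. The other 3 windows held 0 CANNTG and 2, 2 and 3 GC boxes for *Ryr1*, *Atp2a3* and *Itpr2*. The 2 GC boxes of *Atp2a3* share a base. Over the same stretch of 12753 RefSeq starts of genes tested, 53.2% held CANNTG, 10.4% CAGCTG and 46% GGGCGG. The cAMP response element core TGACG was in 0 of these 4 windows and in 19.8% of the 12753. The GC content was 63.8%, 54.3%, 63.3% and 73.3% in the order printed, against a median of 51.9% over 32817 windows, of genes tested or not. CpG dinucleotides numbered 1, 5, 15 and 18. In all, 6 of the 10 members had an entry in the RefSeq table. Not printed were *Ryr2*, whose window held 2 CANNTG and 0 GC boxes, and *Pln*, with 1 CANNTG and 0 GC boxes.

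SERCA1, the product of *Atp2a1* (gene ID 11937, chromosome 7, 126445858 to 126463103), is the pump of fast skeletal muscle fibres. *Atp2a1* read 157 and 106 FPKM in the Ctrl libraries and 0.42 and 0.44 FPKM in the cKO libraries. Both cKO libraries lay far below both Ctrl libraries, and the Ctrl libraries differed from each other by more than the cKO libraries did. The mean fell from 131 ± 36.1 FPKM (SD, n = 2) to 0.43 ± 0.0141 FPKM (SD, n = 2), which was 305-fold lower. The log2 fold change was -6.50 (SE 0.163, 95% interval -6.89 to -6.12, limma adjusted p = 3.58e-06). The cKO values stand on approximately 25.5 and 26.9 reads.

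RYR1, the product of *Ryr1* (gene ID 20190, chromosome 7, 29003340 to 29125179), is the release channel that skeletal muscle opens on excitation. *Ryr1* read 2.66 and 1.93 FPKM in Ctrl and 0.11 and 0.10 FPKM in cKO. The groups did not overlap, and the first Ctrl library was again the higher of its pair. The mean fell from 2.29 ± 0.516 to 0.105 ± 0.00707 FPKM (SD, n = 2 each), 21.9-fold lower. Adding 1 FPKM before taking the logarithm makes changes of low genes look smaller, and on that scale the log2 fold change was -1.57 (SE 0.149, 95% interval -1.92 to -1.22, limma adjusted p = 0.000805). With 0.1 FPKM added in place of 1 it was -3.53 (limma adjusted p = 0.00102). The cKO values stand on approximately 29.5 and 27.0 reads over a long transcript.

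Skeletal muscle genes moved with these members. Of 15 skeletal muscle markers 12 were tested, all 12 called lower, and their median difference on the log2 scale was -6.22. Of these 12 genes 8 had a mean under 1 FPKM in cKO and passed the filter through Ctrl alone. Their summed level was 2680 and 1820 FPKM in Ctrl and 49.4 and 48.4 FPKM in cKO, and 4 of the 15 stood at or below 0.1 FPKM in both cKO libraries. *Acta1*, skeletal muscle actin, went from 493 and 321 FPKM in Ctrl to 2.0 and 1.31 FPKM in cKO (log2 fold change -7.24, limma adjusted p = 4.34e-06), and *Myl1*, a fast myosin light chain, from 320 and 241 FPKM to 37.8 and 39.5 FPKM. In bulk tissue fewer cells of a type and less RNA per cell cannot be told apart. The part of muscle tissue in the fall of *Atp2a1* and *Ryr1* was not tested.

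*Atp2a1* stood at 58.6 and 58.0 FPKM per 1000 FPKM of the summed markers in Ctrl and at 8.50 and 9.08 in cKO. *Ryr1* stood at 0.994 and 1.06 per 1000 in Ctrl and at 2.23 and 2.06 in cKO. *Myl1* made up 11.9% and 13.2% of the marker sum in Ctrl and 76.5% and 81.4% in cKO. With *Myl1* left out of the sum, a choice made after seeing the data, *Atp2a1* stood at 66.6 and 66.8 per 1000 in Ctrl and 36.2 and 48.9 in cKO, and *Ryr1* at 1.13 and 1.22 in Ctrl and 9.48 and 11.1 in cKO. The sum without *Myl1* was 2360 and 1580 FPKM in Ctrl and 11.6 and 9.0 FPKM in cKO, so the cKO ratios rest on low values. *Atp2a1* was lower and *Ryr1* higher relative to either sum, with the groups apart in each case. An exact two-sided permutation test of 2 against 2 libraries gave p = 0.333 for these ratios, the smallest p this design allows.

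The Ctrl libraries differed in the muscle isoforms as they did in the muscle markers. The first over the second Ctrl library gave a ratio of 1.48 for *Atp2a1* and 1.38 for *Ryr1*. Over the 15 skeletal muscle markers this ratio ran from 1.14 to 1.58, with a median of 1.45, and over all genes tested its 5th to 95th percentile ran from 0.838 to 1.23. *Atp2a2* stood at 0.921, *Atp2a3* at 1.02, *Itpr1* at 0.839 and *Itpr2* at 0.805. Of the 6 members tested, the muscle isoforms had ratios above this range and *Itpr2* lay under it.

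**Figure D2:**
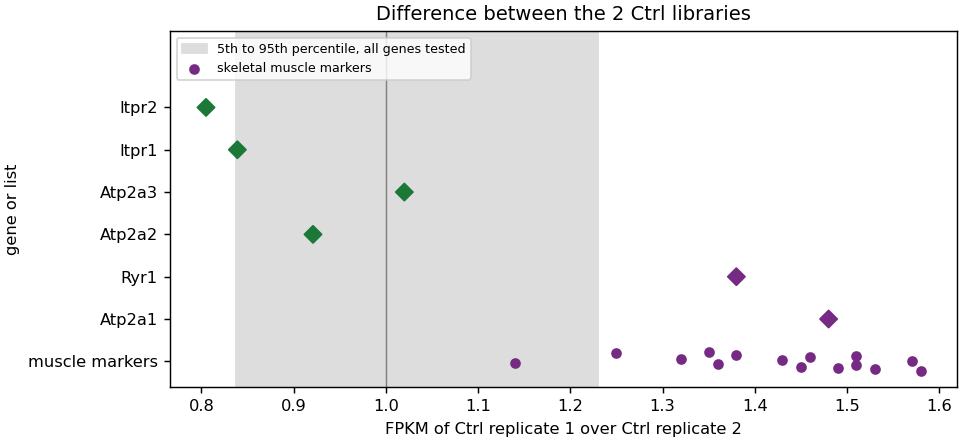
Ratio of the first to the second Ctrl library, in FPKM, for the members tested and the skeletal muscle markers, with the 5th to 95th percentile of all genes tested as a band. *Atp2a1* (1.48) and *Ryr1* (1.38) lie within the range of the 15 markers (1.14 to 1.58) and above the band (0.838 to 1.23), and 1 marker, at 1.14, lies inside the band.

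The genes with the profile nearest to *Atp2a1* over the 4 libraries, by Euclidean distance of centred log2 values, were *Myh4* (distance 0.254), *Tnni2* (0.423) and *Tnnc2* (0.615), which encode fast-fibre myosin and troponins. Nearest to *Ryr1* were *Neb* (0.105), *Retnla* (0.106) and *Cmya5* (0.118). *Neb* and *Cmya5* encode large proteins of the muscle fibre, and *Retnla* a secreted protein of macrophages and adipose tissue. With 4 libraries in 2 groups, such a distance rests mostly on the size of the group difference.

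SERCA2, the product of *Atp2a2* (gene ID 11938, chromosome 5, 122453513 to 122502225), is the pump of most cells. *Atp2a2* read 38.8 and 42.1 FPKM in Ctrl and 52.4 and 49.2 FPKM in cKO. Both cKO libraries were above both Ctrl libraries, and the gap between the groups was larger than the spread within either. The mean rose 1.26-fold, from 40.4 ± 2.34 to 50.8 ± 2.25 FPKM (SD, n = 2 each). On the log2 scale this was 0.32 (SE 0.0658, 95% interval 0.17 to 0.48, limma adjusted p = 0.0119). The call was lost without the first Ctrl library (log2 fold change 0.27, adjusted p = 0.114) and without the first cKO library (0.28, adjusted p = 0.070).

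SERCA3, the product of *Atp2a3* (gene ID 53313, chromosome 11, 72961169 to 72993043), is a pump of blood, endothelial and some epithelial cells. *Atp2a3* read 19.5 and 19.2 FPKM in Ctrl and 23.1 and 26.1 FPKM in cKO. The groups did not overlap, and the second cKO library was the highest. The mean rose 1.27-fold, from 19.3 ± 0.219 to 24.6 ± 2.06 FPKM (SD, n = 2 each). On the log2 scale this was 0.33 (SE 0.0721, 95% interval 0.16 to 0.50, limma adjusted p = 0.0158). The call held without the first cKO library (0.41, adjusted p = 0.0214) and was lost without the first Ctrl library (0.34, adjusted p = 0.115), the second Ctrl library (0.32, adjusted p = 0.108) or the second cKO library (0.25, adjusted p = 0.0675).

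Markers of lymphocytes, which are known to express *Atp2a3*, moved the same way. Of 7 B cell markers 6 were called higher, and their summed level was 233 and 265 FPKM in Ctrl and 362 and 411 FPKM in cKO. Of 7 T cell markers 5 were called higher, with sums of 84.0 and 88.1 FPKM in Ctrl and 116 and 152 FPKM in cKO. Both sums, like *Atp2a3*, were highest in the second cKO library. *Cd79a*, a chain of the B cell receptor complex, had a log2 fold change of 0.72, *Cd79b* 0.69, *Cd3g*, a chain of the T cell receptor complex, 0.66, and the T cell kinase *Lck* 0.61. Their part in the rise of *Atp2a3* was not tested.

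The make-up of the pump pool, summed over all cells of the bulk tissue, changed sides. Which cells held each transcript was not tested. *Atp2a1* gave 72.9% and 63.3% of the summed FPKM of the 3 pump genes in Ctrl and 0.553% and 0.581% in cKO. *Atp2a2* gave 18% and 25.2% in Ctrl and 69.0% and 65.0% in cKO, and *Atp2a3* 9.06% and 11.5% in Ctrl and 30.5% and 34.4% in cKO. The summed level of the 3 genes was 215 and 167 FPKM in Ctrl and 76.0 and 75.7 FPKM in cKO. Without *Atp2a1* the sum was 58.2 and 61.2 FPKM in Ctrl and 75.5 and 75.3 FPKM in cKO, so the direction of the summed level turned on that gene. *Atp2a3* stood at 50.3 and 45.6 per 100 FPKM of *Atp2a2* in Ctrl and at 44.2 and 52.9 in cKO, and these ranges overlapped (exact two-sided permutation p = 1.0). For the shares and sums, whose groups did not overlap, the exact permutation test gave p = 0.333, the smallest possible.

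**Figure D3:**
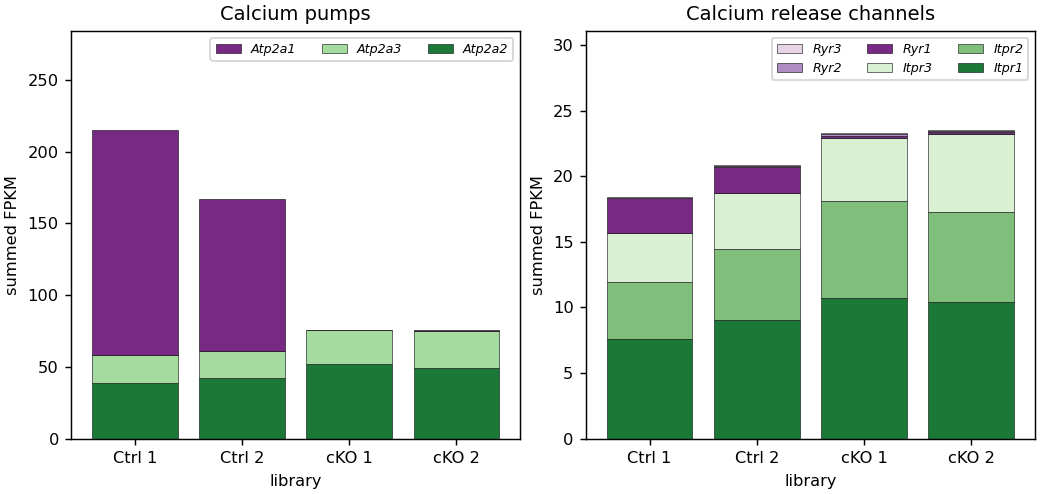
Summed FPKM of the pump genes and of the release channel genes in each library, stacked by gene, on axes that start at 0. *Atp2a1* gives most of the pump sum in the 2 Ctrl libraries and under 1% in the 2 cKO libraries, and the IP3 receptors give most of the channel sum in all 4.

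*Itpr1* (gene ID 16438, chromosome 6, 108213083 to 108551116) encodes the IP3 receptor best known from neurons and smooth muscle. It read 7.59 and 9.05 FPKM in Ctrl and 10.7 and 10.4 FPKM in cKO. The groups did not overlap, but the Ctrl libraries lay further from each other than the second Ctrl library lay from the lower cKO library. The mean rose 1.27-fold, from 8.32 ± 1.03 to 10.5 ± 0.226 FPKM (SD, n = 2 each). On the log2 scale this was 0.31 (SE 0.0901, 95% interval 0.10 to 0.53, limma adjusted p = 0.0425). The call was lost when each of the 4 libraries in turn was left out, with adjusted p-values from 0.0531 to 0.256.

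*Itpr2* (gene ID 16439, chromosome 6, 146108299 to 146502258) encodes the most IP3-sensitive of the receptors. It read 4.34 and 5.39 FPKM in Ctrl and 7.39 and 6.86 FPKM in cKO. Both cKO libraries were above both Ctrl libraries. The mean rose 1.46-fold, from 4.87 ± 0.742 to 7.12 ± 0.375 FPKM (SD, n = 2 each). On the log2 scale this was 0.48 (SE 0.104, 95% interval 0.23 to 0.72, limma adjusted p = 0.016). The call held without the second Ctrl library (0.60, adjusted p = 0.0347) and was lost without the first Ctrl library (0.35, adjusted p = 0.136), the first cKO library (0.43, adjusted p = 0.0891) or the second (0.52, adjusted p = 0.0526). *Itpr3*, the remaining receptor gene of the family and chosen here after its values were seen, read 3.73 and 4.30 FPKM in Ctrl and 4.84 and 6.01 FPKM in cKO (log2 fold change 0.35, limma adjusted p = 0.0609).

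Release channels also differed in make-up. The 3 ryanodine receptor genes summed to 2.74 and 2.08 FPKM in Ctrl and to 0.33 and 0.27 FPKM in cKO, while *Itpr1* and *Itpr2* summed to 11.9 and 14.4 FPKM in Ctrl and to 18.1 and 17.2 FPKM in cKO. *Ryr1* gave 97.1% and 92.8% of the ryanodine receptor sum in Ctrl and 33.3% and 37.0% in cKO. The cKO shares rest on low values, 0.06 to 0.14 FPKM per gene and library. Ryanodine receptors gave 14.9% and 9.99% of the sum of ryanodine and all 3 IP3 receptor genes in Ctrl and 1.42% and 1.15% in cKO. *Itpr2* stood at 57.2 and 59.6 per 100 FPKM of *Itpr1* in Ctrl and at 69.1 and 66.1 in cKO. None of these groups overlapped (exact two-sided permutation p = 0.333 each, the smallest possible).

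The other 4 members had a mean below 1 FPKM and were not tested. *Ryr2* (gene ID 20191, chromosome 13, 11553099 to 12106945), the receptor of heart muscle, read 0.04 and 0.10 FPKM in Ctrl and 0.14 and 0.11 FPKM in cKO, on approximately 12.4 to 41.1 reads. *Ryr3* (gene ID 20192, chromosome 2, 112631354 to 113217405), a receptor found at low levels in many tissues, read 0.04 and 0.05 FPKM in Ctrl and 0.08 and 0.06 FPKM in cKO. For both genes the cKO libraries were above the Ctrl libraries, as for 26.1% of all genes of the table. In a fit without the filter, which called 9.26% of all genes, their log2 fold changes were 0.07 (limma adjusted p = 0.352) and 0.03 (limma adjusted p = 0.50).

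*Pln* (gene ID 18821, chromosome 10, 53337686 to 53345999), phospholamban, the inhibitor best known in heart and slow muscle, read 0.56 and 0.50 FPKM in Ctrl and 0.30 and 0.42 FPKM in cKO, on approximately 12.2 to 24.2 reads. Both cKO libraries were below both Ctrl libraries, as for 29.9% of all genes of the table, and without the filter the log2 fold change was -0.17 (limma adjusted p = 0.188). *Pln* stood at 1.44 and 1.19 per 100 FPKM of *Atp2a2* in Ctrl and at 0.573 and 0.853 in cKO. *Sln* (gene ID 66402, chromosome 9, 53850251 to 53853849), sarcolipin, an inhibitor of the pump in muscle, was listed at 0.11 FPKM in the first Ctrl library, approximately 2.7 reads, and at 0 in the other 3. All 4 values lie under the 0.123 to 0.130 FPKM that 3 reads would give, so no fold was computed for *Sln*.

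By mean level in Ctrl the members ran from *Atp2a1* over *Atp2a2*, *Atp2a3*, *Itpr1*, *Itpr2*, *Ryr1*, *Pln* and *Ryr2* to *Ryr3*, with *Sln*, at or under the floor in every library, left unranked. In cKO the order began with *Atp2a2*, *Atp2a3*, *Itpr1* and *Itpr2* and went on with *Atp2a1*, *Pln*, *Ryr2*, *Ryr1* and *Ryr3*. Neighbours whose libraries overlapped or touched were *Ryr2* and *Ryr3* in Ctrl and *Ryr2* and *Ryr1* in cKO. *Atp2a1* and *Pln* in cKO shared a value of 0.42 FPKM.

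Brown fat genes moved with the members that rose. All 7 brown fat markers were called higher, with sums of 1520 and 1790 FPKM in Ctrl and 4780 and 4040 FPKM in cKO. *Ucp1*, the uncoupling protein of brown and beige fat, read 335 and 446 FPKM in Ctrl and 1658 and 1420 FPKM in cKO, and *Cox8b* had a log2 fold change of 0.91. *Atp2a2*, *Itpr1* and *Itpr2* ran in the order of these 7 genes, from the first to the second Ctrl library, then the second and the first cKO library. *Atp2a3* did not have this order, which was picked after the values were seen. Of the 12658 genes tested 8.47% had it, and of the 1519 called higher 38.4%. A link between these members and the brown fat genes was not tested.

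Markers of other cell types the tissue can hold changed in ways that differed between lists. Of all genes tested, 12.0% were called higher and 13.8% lower. Of 8 smooth muscle markers 1 was called higher, *Acta2*, and the sums were 92.4 and 87.8 FPKM in Ctrl and 94.5 and 94.6 FPKM in cKO, with *Tagln* at a log2 fold change of 0.06. Slow muscle and heart, which use SERCA2, gave low sums. For slow muscle these were 1.26 and 0.92 FPKM in Ctrl and 2.32 and 2.20 FPKM in cKO, led by *Myl3* and *Tnnt1*. *Myl3*, the 1 gene tested and called higher (0.67), had a Ctrl mean of 0.57 FPKM. It passed the filter through cKO alone, so this call is a description. For heart the sums were 6.15 to 7.72 FPKM in all libraries, led by *Myl4*, which was not called, and *Tnni3*. The defining myosins *Myh7* of slow muscle (0.01 to 0.04 FPKM) and *Myh6* of heart (0 to 0.02 FPKM), named after their values were seen, were near 0. The part of slow or heart muscle in the rise of *Atp2a2* was not tested. Of 6 macrophage markers 1 was called higher (*Cd68*) and 3 lower, with *Lyz2* not called. Of 3 platelet markers tested 2 were called higher, with *Itga2b* at 0.40 and *Pf4*, at -0.19, not called. Of the 2 called higher, 1 had a Ctrl mean under 1 FPKM and passed the filter through cKO alone. Endothelial markers gave 3 of 6 lower (*Cdh5* -0.24, *Pecam1* not called), Schwann and nerve markers 4 of 4 lower (*Mbp* -1.20), fibroblast markers 6 of 7 lower (*Dcn* -0.92, *Col3a1* -0.52) and white adipocyte markers 4 of 7 lower (*Lpl* -0.37, *Fabp4* not called). Epithelial markers, led by *Epcam* and *Cdh1*, summed to 0.63 to 0.90 FPKM and were not tested.

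**Figure D4:**
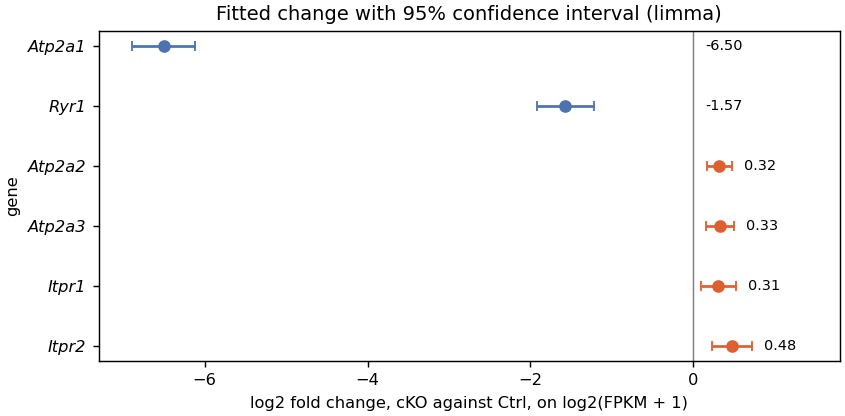
Change from Ctrl to cKO in log2(FPKM + 1) for the 6 members tested, with 95% intervals from limma. *Atp2a1* (-6.50) and *Ryr1* (-1.57) lie below 0 and the other 4 lie between 0.31 and 0.48.

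The rest of the calcium pathway was read from 9 lists of genes around the pumps and channels. Of the 89 genes measured 73 were tested, and 7 were called higher (9.59%, beside 12.0% of all genes tested), 22 lower (30.1%, beside 13.8%) and 44 neither, with a median log2 fold change of -0.06. SR lumen and junction genes gave 11 of the 22 falls, with 11 of 15 lower and 0 higher. Of these 11 genes 7 had a mean under 1 FPKM in cKO and passed the filter through Ctrl alone, as did 11 of the 22 over all lists, so these counts are descriptions. The largest of these was *Casq1*, calsequestrin, the calcium-binding protein of the muscle store, at 31.5 and 20.8 FPKM in Ctrl and 0.19 and 0.12 FPKM in cKO (log2 fold change -4.52, limma adjusted p = 2.59e-05). *Tmem38a* and *Tmem38b*, chosen after their values were seen, encode the cation channels TRIC-A of muscle and TRIC-B of most cells, and they gave -2.03 (limma adjusted p = 0.000318) and 0.16 (limma adjusted p = 0.155).

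Falls in other lists also included muscle genes that act on the members. *Mrln*, myoregulin, a micropeptide that inhibits SERCA in muscle, read 4.62 and 2.96 FPKM in Ctrl and 0.14 and 0.28 FPKM in cKO (log2 fold change -1.97), 1 of 2 small pump regulators tested. *Cacna1s*, the voltage sensor that opens RYR1, read 3.76 and 2.57 FPKM in Ctrl and 0.17 and 0.18 FPKM in cKO (-1.81). It was 1 of 3 L-type channel genes called lower of 5, and *Cacnb3*, an accessory subunit, was the 1 called higher (0.43). *Camk2a*, a calcium-dependent kinase, had the largest fall of the calmodulin and kinase list (-1.37), where 2 of 7 were lower and 0 higher. *Atp2b4*, a pump of the plasma membrane, was the 1 export gene called of 3, at -0.61.

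Over the IP3 pathway, store-operated entry, ER and Golgi buffer and mitochondrial lists 6 of 41 genes rose and 4 fell (24.4% together). This share was near the 25.8% of all genes tested. The grouping of these lists was not planned, and the lists left out hold the rest of the 22 falls, so the share depends on it. Of 15 IP3 pathway genes 2 were higher and 2 lower, led by *Ahcyl1*, which encodes the IP3 receptor inhibitor IRBIT, at 61.8 and 70.3 FPKM in Ctrl and 107 and 95.4 FPKM in cKO (log2 fold change 0.61, limma adjusted p = 0.00275), and by *Plcb1*, a phospholipase that makes IP3, at -0.47. Store-operated entry had 1 of 8 higher, *Orai3*, a channel subunit of the plasma membrane (0.30), and 1 lower, *Cracr2b*, a regulator of those channels (-0.34). ER and Golgi calcium buffers had 1 of 7 lower, *Sdf4* (-0.25). Mitochondrial calcium genes had 3 of 11 higher and 0 lower, led by *Letm1*, an ion exchanger of the inner membrane (0.68).

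**Figure D5:**
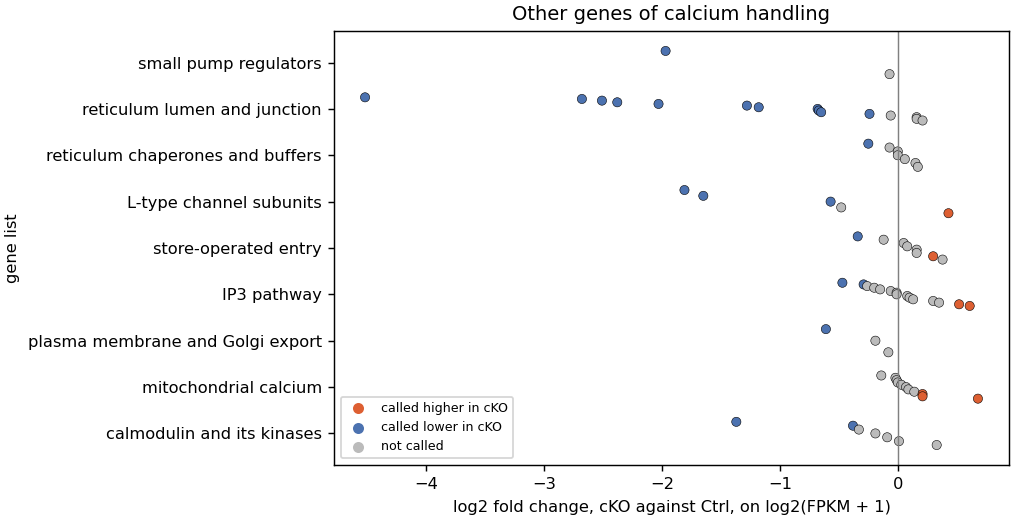
Log2 fold change of cKO against Ctrl for the 73 tested genes of the 9 calcium pathway lists, 1 point per gene, in 1 row per list, coloured by call. The SR lumen and junction list reaches -4.52 and has 11 of 15 genes called lower, 7 of them with a cKO mean under 1 FPKM, and the mitochondrial list has 3 of 11 called higher.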

How the data were processed

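The authors sequenced poly-A RNA of ingWAT from Ctrl and cKO mice, 2 libraries each, on a BGISEQ-500, and deposited 1 table of FPKM per gene and library. The submitters' processing notes name HISAT2 2.0.4, RSEM 1.2.12 and the build mm10. Counts were not used here. Depth was estimated from 314 RNAs of at most 400 bases whose FPKM steps gave whole reads, within 0.1 read, for 83.0% to 86.4% of 141 to 154 values of up to 6 reads, and approximate reads per member follow from it and the longest transcript. These cover counting error only.

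Genes with a mean of at least 1 FPKM were put on a log2(FPKM + 1) scale and fitted in 1 model. The tool was limma 3.58.1, run in R 4.3.3 (empirical Bayes with trend, Benjamini-Hochberg adjustment). Single ratios and sums were compared by an exact permutation test over libraries. Scripts were tested on simulated data. Alternatives were a pseudocount of 0.1, no filter, a filter at 5 FPKM, median-of-ratios scaling, quantile normalization, no trend, a replicate block and leaving out each library. The marker sum without *Myl1* was added after seeing the data. The members, pathway lists and marker lists were chosen with earlier results of these data known. Genes named are the members, *Slc22a3*, the largest called rise and fall of each pathway list, the 2 most abundant genes of each marker list and the 3 nearest profiles of *Atp2a1* and *Ryr1*. Any other is said to be chosen after its values were seen. A gene that this rule names is not reported here. Gene positions are from GENCODE M21 (GRCm38) and windows before gene starts from RefSeq. Of the symbols deposited, 24 were missing or had turned into dates.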

Additional observations from a re-analysis of the deposited data

How the results depend on the processing

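No log2 fold change of the 6 members tested changed sign under the alternatives run. The falls of *Atp2a1* (-6.79 to -6.22 without single libraries) and *Ryr1* (-1.73 to -1.41) kept their calls wherever they were tested, and a filter at 5 FPKM removed *Ryr1*, which left 1 member lower and 10 pathway genes lower. Without a filter, over 19030 genes, limma called 1762 genes in place of 3269 and 0 of the 4 members higher, although 4 of 4 had an unadjusted p under 0.05. The adjusted p was then 0.0574 for *Atp2a2* (log2 fold change 0.32), 0.0685 for *Atp2a3* (0.33), 0.132 for *Itpr1* (0.31) and 0.0895 for *Itpr2* (0.48), and 4 pathway genes were higher. Without the trend *Itpr1* (0.31) had an adjusted p of 0.0631. Leaving out single libraries gave 0.27 to 0.38 for *Atp2a2*, 0.25 to 0.41 for *Atp2a3*, 0.20 to 0.43 for *Itpr1* and 0.35 to 0.60 for *Itpr2*, with 0 to 2 members higher, 2 to 7 pathway genes higher and 13 to 20 lower, and 787 to 2340 genes called. The 0 was without the first Ctrl library, where 3 of 4 had an unadjusted p under 0.05. The smaller number of libraries and the larger number of genes tested are part of these alternatives by construction.

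Libraries with the same replicate number did not deviate together (correlation of replicate differences 0.0148 over 12658 genes). This correlation cannot tell whether they were prepared as pairs. With the replicate number as a block, 4 members were higher and 2 lower, 24 pathway genes were lower and 3383 genes were called. With *Myl1* left out of the marker sum the log2 ratio of cKO to Ctrl per marker FPKM was -0.65 in place of -2.73 for *Atp2a1* and 3.14 in place of 1.05 for *Ryr1*. Both scalings and a pseudocount of 0.1 kept every call of a member.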
